A study of Mus musculus with 8 samples.

Results

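The genes described here encode the machinery that turns prohormones into active peptides, and the granins, the acidic proteins packed with those peptides in dense-core vesicles. They were chosen by symbol, and of the 10 genes named (Pcsk1, Pcsk2, Pcsk1n, Cpe, Scg2, Scg3, Scg5, Chga, Chgb and Vgf), 9 had a transcript cluster in the platform annotation among 19938 genes tested. Pcsk2 was not analysed here. A transcript cluster is a set of array probes summarised as 1 signal. Each of the 9 measured genes had 1 cluster that named that gene alone.

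In neurons, prohormones enter the regulated secretory pathway in the Golgi and are cut at pairs of basic residues by the convertases Pcsk1 and Pcsk2. Carboxypeptidase E, the product of Cpe, then trims the basic residues left at the new ends. Granins aggregate in the acidic Golgi lumen and help to form the vesicle core, and several of them are themselves cut into peptides. Unlike synaptic vesicles, dense-core vesicles are not refilled at the terminal, so that released peptide has to be replaced by new synthesis.

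RNA came from hippocampal neurons of ICR mice, an outbred strain, prepared from embryos at day 17.5 and kept for 10 days in culture. All cultures received 50 µM bicuculline, which blocks GABA-A receptors and so raises network firing, and were harvested after 0, 30, 180 or 300 min. Each time had 2 biological replicates, and each replicate was hybridised to its own Affymetrix Mouse Gene ST 1.0 array. The labels name no untreated culture at the later times, so bicuculline and the time elapsed cannot be told apart. Separate dissections are not stated for the replicates, and the p-values therefore cover the spread of these arrays, which may be technical.

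Array medians lay between 4.84 and 4.88 on the log2 scale, and the difference between replicate arrays had an SD of 0.19 to 0.23 across genes. Of 7 genes used to check the response to activity, 6 were higher at 30 min than at 0 min, for example Npas4, an activity-induced transcription factor gene (log2 change 3.88 ± 0.14 SE, limma adjusted p = 2.67e-09). All 8 pan-neuronal markers lay above 4.46, the 95th percentile of 1027 olfactory receptor genes, which served as the mark of background. Of 7 pituitary and chromaffin markers, endocrine cells also rich in granins, 1 did. Of the astrocyte markers 7 of 8 did, of the oligodendrocyte lineage 6 of 7 and of microglia 6 of 8. Of vessel markers 3 of 7 did and of fibroblast markers 4 of 5, so the cultures were not shown to be neurons alone. The mean of the pan-neuronal markers stayed between 8.96 and 9.14 over the 8 arrays, and that of 5 fibroblast markers between 6.13 and 6.29. Means of 8 astrocyte markers lay between 5.68 and 6.02 and those of 8 microglial markers between 4.80 and 5.08. No marker of astrocytes, microglia, the oligodendrocyte lineage, vessels or fibroblasts passed the test between the later and earlier times (limma, with 1 gene at an unadjusted p under 0.05, of the oligodendrocyte lineage, against 2857 of 19938 over all genes). Of the 8 pan-neuronal and 7 inhibitory markers none passed either, with 2 of each at an unadjusted p under 0.05, and their changes ran from −0.30 to 0.13 and from −0.33 to 0.20. The 5 measured excitatory markers had a median change of −0.02, with 2 above 0. Among them the glutamate transporter gene Slc17a6 did (0.38 ± 0.09 SE, limma adjusted p = 0.0406), and its part in the results below was not tested. Bulk RNA cannot tell more RNA per cell from more cells of a type.

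Of the 9 measured genes, 3 were higher after 180 and 300 min of bicuculline than after 0 and 30 min: the convertase gene Pcsk1, 2.36-fold, and the granin genes Scg2, 1.45-fold, and Vgf, 1.43-fold. The 6 others, namely Pcsk1n, Scg5, Cpe, Scg3, Chga and Chgb, did not pass the test in any comparison, and their changes between those times lay between −0.07 and 0.13 on the log2 scale. None of the 9 passed at 30 min (limma, and none at an unadjusted p under 0.05). The comparison of the 4 later with the 4 earlier arrays called 2.22% of all genes, 1.2% as higher and 1.01% as lower (limma, adjusted p under 0.05 over all genes). Median centring of the arrays gave 201 higher and 271 lower genes in place of 240 and 202. Over all genes the 442 calls were fewest without 0 min replicate 1 (159), 30 min replicate 1 (154), 30 min replicate 2 (206) and 300 min replicate 1 (208). The median change was 0.06 over the 9 genes and −0.003 over all genes.

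**Figure D1:**
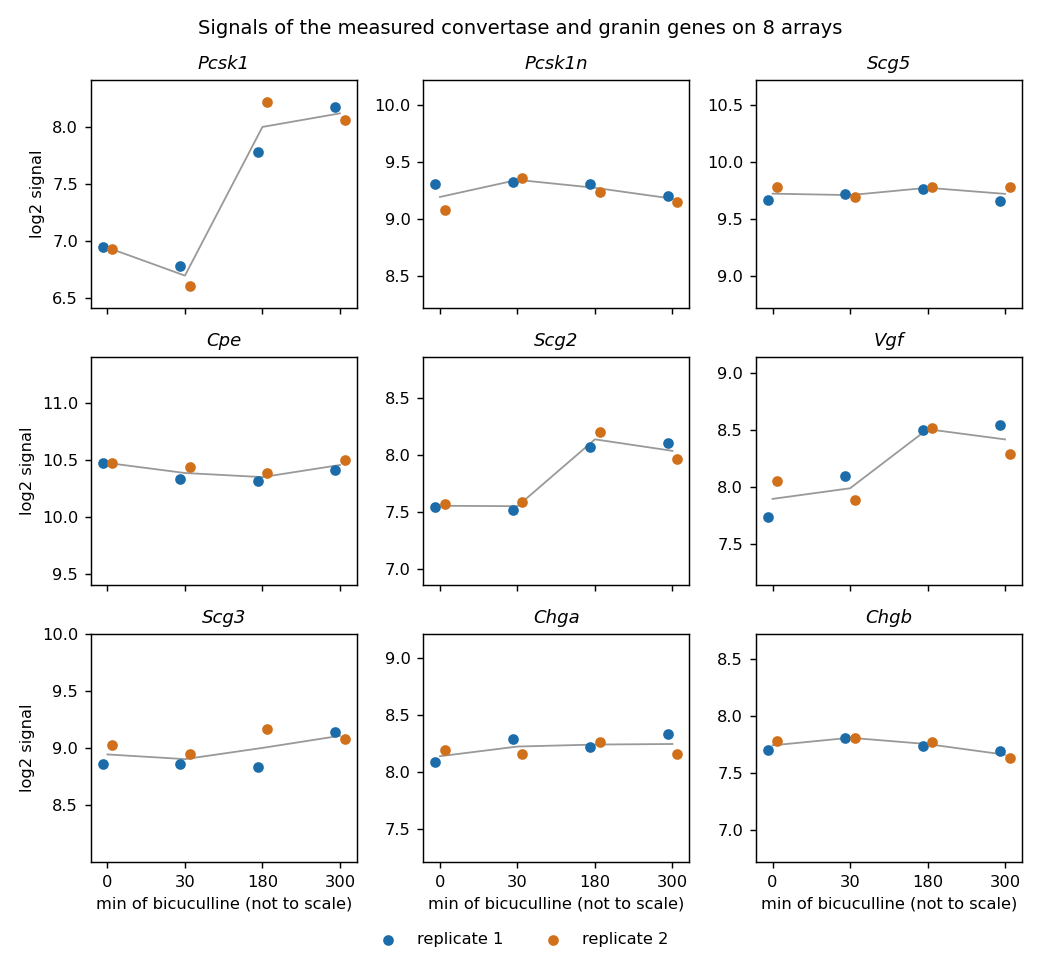
Log2 signal (y axis, a span of 2 units in each panel) against the time of bicuculline (x axis, equal steps) for the 9 measured genes, with 1 point per array coloured by replicate number and a line through the mean of each time. The points of Pcsk1, Scg2 and Vgf at 180 and 300 min all lie above those at 0 and 30 min, and those of the 6 other genes overlap between the earlier and later times.

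The convertase gene Pcsk1 changed most of the 9. It had signals of 6.95 and 6.93 at 0 min, 6.78 and 6.61 at 30 min, 7.78 and 8.22 at 180 min, and 8.18 and 8.06 at 300 min. All 4 later arrays lay above all 4 earlier ones. The difference of 30 min from 0 min did not pass (−0.25 ± 0.15 SE, limma adjusted p = 0.965). At 180 min Pcsk1 was 2.08-fold above 0 min (log2 change 1.06 ± 0.15 SE, limma adjusted p = 0.00567) and at 300 min 2.26-fold (1.18 ± 0.15, limma adjusted p = 0.00179), in comparisons that share the 0 min arrays and that called 0.331% and 0.286% of all genes. Against 30 min, without the 0 min arrays, the 180 min change was 1.30 ± 0.15 SE (limma adjusted p = 0.000572, with 0.502% of all genes called).

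The 180 and 300 min signals of Pcsk1 did not differ beyond their spread (0.12 ± 0.15 SE, 95% interval −0.19 to 0.43, limma adjusted p = 0.918). Its order over time was thus 30, 0, 180 and 300 min, and of the neighbours in that order, 0 and 180 min were the pair whose difference passed. The 2 arrays at 180 min differed from each other more than those of any other time did (SD 0.31, n = 2). The call at 180 min against 0 min was lost without either 0 min array (limma adjusted p = 0.0599 and 0.0614), and the change there was 0.84 without 180 min replicate 2. The call at 300 min was kept without each array in turn, with a highest limma adjusted p of 0.045.

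Over the later against the earlier arrays, Pcsk1 changed by 1.24 ± 0.10 SE (95% interval 1.02 to 1.46, limma adjusted p = 2.14e-05), and without each array in turn by 1.13 to 1.35, always with a call. Genes whose 4 later arrays all lay above the 4 earlier ones made up 3.47% of all genes.

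Pcsk1, Scg2 and Chgb share a sequence feature that the choice of genes did not use, and their promoters are shown for that reason beside Chga, which holds a part of it. The feature is the cAMP response element (CRE), TGACGTCA, the site of CREB-family transcription factors that relay calcium and cAMP signals to genes. RefSeq promoter windows of GRCm38.p6, from 250 bases before to 50 after the annotated gene start, were at hand for 7 of the 9 measured genes and not for Cpe and Vgf. The 100 bases before the start are printed 5′ to 3′ on the strand of the gene, with capitals on the full CRE and on its core TGACG.
Pcsk1, chr13:75089757-75089856, plus strand: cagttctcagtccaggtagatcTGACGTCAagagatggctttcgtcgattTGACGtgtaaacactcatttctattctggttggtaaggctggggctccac
Scg2, chr1:79440027-79440126, minus strand: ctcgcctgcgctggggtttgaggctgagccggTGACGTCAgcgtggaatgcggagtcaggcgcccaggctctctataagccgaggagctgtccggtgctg
Chgb, chr2:132781542-132781641, plus strand: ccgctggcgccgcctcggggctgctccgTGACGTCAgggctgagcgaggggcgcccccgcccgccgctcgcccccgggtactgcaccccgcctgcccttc
Chga, chr12:102554841-102554940, plus strand: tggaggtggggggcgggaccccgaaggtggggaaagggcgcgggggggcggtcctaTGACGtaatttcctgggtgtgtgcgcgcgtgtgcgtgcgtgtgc

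The full CRE began 78 bases before the start of Pcsk1, 68 before that of Scg2 and 72 before that of Chgb. It was found in 588 of 32851 promoter windows, or 1.79%. Pcsk1 held a second, lone core 50 bases before its start, and Chga held a core 44 bases before its start. Scg3 held a lone core 30 bases before its start. Scg5 held 3 lone cores, 175 bases before its start and 19 and 40 after it. Cores on either strand, with the 2 that a full CRE contains included, occurred in 20.8% of windows. The AP-1 site TGANTCA, the site of Fos and Jun proteins, was found in 7.81% of windows and, of these 7 genes, in that of Pcsk1n, 234 bases before the start. Each search covered both strands. A match describes letters and not binding, which was not measured. Of the 3 genes with a full CRE, Pcsk1 and Scg2 rose at the later times, and Chgb changed by −0.07 ± 0.08 SE without passing. Vgf, which also rose, had no window. A link between the motif and the changes was not tested.

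**Figure D2:**
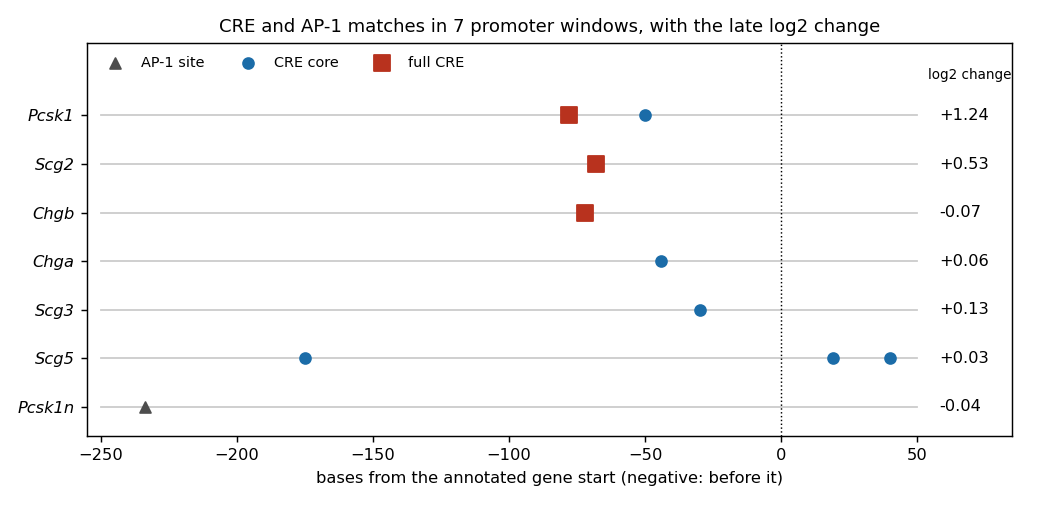
Positions of the full CRE (squares), CRE cores outside a full CRE (circles) and the AP-1 site (triangle) in the promoter windows of 7 measured genes, in bases from the annotated gene start on the x axis. The log2 change of each gene between the later (180 and 300 min) and earlier (0 and 30 min) arrays stands at the right, and the 3 squares belong to Pcsk1, Scg2 and Chgb, with changes of 1.24, 0.53 and −0.07.

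The regulators and partners of the convertases did not pass. Pcsk1n encodes proSAAS, an inhibitor of Pcsk1. Its signals were 9.30 and 9.08 at 0 min, 9.32 and 9.36 at 30 min, 9.30 and 9.24 at 180 min, and 9.20 and 9.15 at 300 min, so that the earlier arrays spanned the later ones. The change from the earlier to the later arrays was −0.04 ± 0.09 SE (95% interval −0.23 to 0.14, limma adjusted p = 0.892). Its sign depended on 1 array, being 0.01 without 0 min replicate 1.

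Scg5 encodes a chaperone that binds the Pcsk2 precursor within the secretory pathway. It varied least of the 9, with all 8 signals between 9.66 and 9.78, and changed by 0.03 ± 0.08 SE (95% interval −0.15 to 0.21, limma adjusted p = 0.921). Cpe had signals between 10.31 and 10.50 and changed by −0.03 ± 0.08 SE (95% interval −0.20 to 0.15, limma adjusted p = 0.934). For these genes the upper ends of the intervals lie below the 1.02 at which the interval of Pcsk1 begins. The gene of the convertase thus rose at the later times while no change of that size was detectable in its inhibitor, in the chaperone of the related convertase or in the carboxypeptidase. The changes were not tested against one another.

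Among the granins, Scg2, which encodes secretogranin II, the source of the peptide secretoneurin, had the smallest spread of the 9 on the earlier arrays. Its signals were 7.54 and 7.57 at 0 min, 7.52 and 7.59 at 30 min, 8.07 and 8.21 at 180 min, and 8.11 and 7.97 at 300 min. The 4 earlier arrays lay within 7.52 to 7.59, and the lowest later array was at 7.97. The later arrays were higher by 0.53 ± 0.08 SE (95% interval 0.35 to 0.71, limma adjusted p = 0.00452), and the call was kept without each array in turn, with changes of 0.50 to 0.57. An F test over all 4 times also passed (limma adjusted p = 0.0323, with 0.813% of all genes called), but not without 7 of the 8 arrays in turn.

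Between single times fewer differences passed for Scg2. The changes of 0.58 ± 0.12 SE at 180 min and 0.48 ± 0.12 at 300 min against 0 min missed the threshold (limma adjusted p = 0.0585 and 0.144). That of 180 against 30 min passed at 0.59 ± 0.12 (limma adjusted p = 0.0446) and was lost without each of the 8 arrays in turn, with limma adjusted p of 0.0566 to 0.463. The order of Scg2 was 30, 0, 300 and 180 min, and no 2 neighbours in it differed beyond the threshold.

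Vgf encodes a granin-like precursor of several secreted peptides, inducible by neurotrophins. Its signals were 7.74 and 8.05 at 0 min, 8.10 and 7.88 at 30 min, 8.50 and 8.52 at 180 min, and 8.55 and 8.29 at 300 min. The later arrays again all lay above the earlier ones, with a wider spread before (7.94 ± 0.16 SD, n = 4) than for Scg2 (7.55 ± 0.03 SD, n = 4). The change was 0.52 ± 0.10 SE (95% interval 0.31 to 0.73, limma adjusted p = 0.0141). This call was lost without 0 min replicate 1 (limma adjusted p = 0.0801), without 30 min replicate 2 (0.0728) and without 300 min replicate 1 (0.0752). Against 0 min alone, Vgf changed by 0.61 ± 0.14 SE at 180 min and 0.52 ± 0.14 at 300 min, which missed the threshold (limma adjusted p = 0.0971 and 0.199), as did the F test over the times (0.093).

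The chromogranins and secretogranin III did not pass. Chga, which encodes chromogranin A, had signals between 8.09 and 8.29 on the earlier arrays and between 8.16 and 8.33 on the later ones. It changed by 0.06 ± 0.09 SE (95% interval −0.12 to 0.25, limma adjusted p = 0.821). Chgb, which encodes chromogranin B, lay between 7.71 and 7.81 and then between 7.63 and 7.78, a change of −0.07 ± 0.08 SE (95% interval −0.24 to 0.10, limma adjusted p = 0.782). Its arrays of 300 min were at 7.70 and 7.63.

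Scg3, which encodes secretogranin III, a protein that ties granin aggregates to the vesicle membrane, changed by 0.13 ± 0.09 SE (95% interval −0.07 to 0.33, limma adjusted p = 0.596). Its lowest and highest signals were the 2 arrays of 180 min, at 8.84 and 9.17. At 300 min the arrays were at 9.14 and 9.08, and the change from 0 min was 0.16 ± 0.13 SE (limma adjusted p = 0.788). The interval of Scg2 begins at 0.35, above the upper ends of the intervals of Chga, Chgb and Scg3, and that of Vgf at 0.31, above those of Chga and Chgb. By the calls, the granin genes of this grouping fell into 2 that rose at the later times and 3 without a detectable change. Pcsk1n and Scg5 were grouped above with the convertases. The intervals of Vgf and Scg3 overlap, and the differences between the granin genes were not tested.

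**Figure D3:**
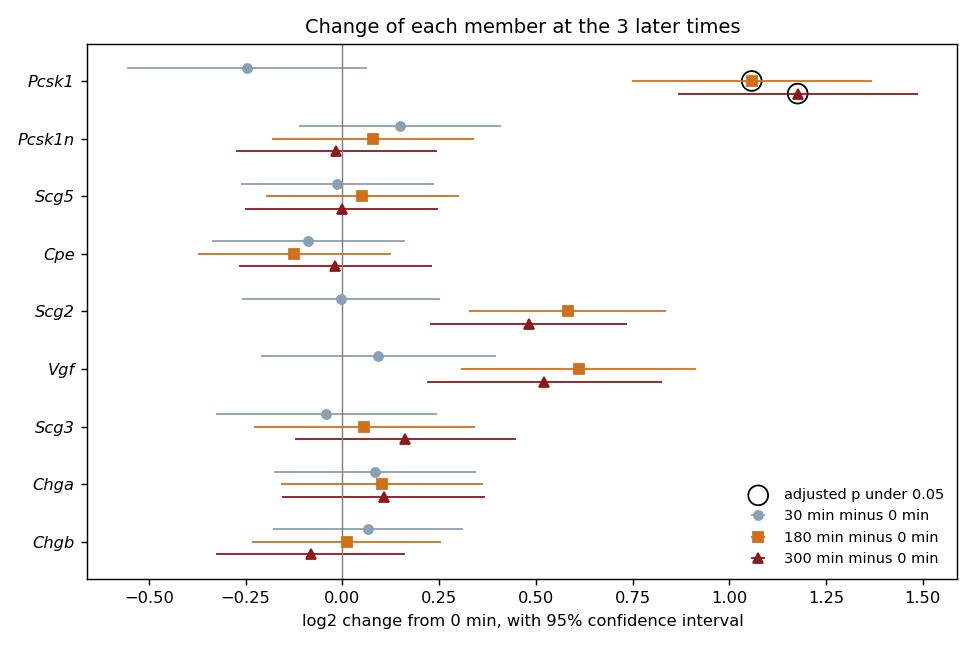
Log2 change from 0 min (x axis) of the 9 measured genes at 30, 180 and 300 min, with 95% confidence intervals from the limma fit, and a ring around changes with an adjusted p under 0.05. The rings are on Pcsk1 at 180 and 300 min, at 1.06 and 1.18, while the intervals of Scg2 and Vgf at both times lie above 0 without a ring.

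From 180 to 300 min none of the 9 genes passed, with changes between −0.10 and 0.12, and none of the 19938 genes did (limma, 0% called). At an unadjusted p under 0.05 there were 1141 of all genes and 0 of the 9, and without 180 min replicate 2 the test called 14 genes. At 30 min the 9 genes had changes between −0.25 and 0.15 with 0.0953% of all genes called, when Npas4 and 5 others of the activity genes were already high. Between 30 and 180 min Pcsk1 and Scg2 passed, as given above, and Vgf did not (0.52 ± 0.14 SE, limma adjusted p = 0.164).

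By the root mean square difference of the 3 log2 changes from 0 min, the genes most like Pcsk1 were Ism1 (0.11), Inhba (0.15), Gpr3 (0.17), Spry2 (0.19) and Penk (0.20). These values rest on the means of 4 times and on shared 0 min arrays. Inhba encodes an activin subunit, Gpr3 a receptor active without ligand, Spry2 an inhibitor of growth factor signalling and Penk the enkephalin precursor. Ism1 changed by −0.20, 0.95 and 1.03 at 30, 180 and 300 min and did not pass the F test (limma adjusted p = 0.0554), which the 4 others did. The genes nearest to Scg2 were Zbtb1, Htr2a and Sstr2 (0.04 each), then Ednrb (0.05) and Arfgap2 (0.06), none of which passed the F test. Within a difference of 0.3 lay 1491 genes for Scg2 and 17 for Pcsk1, with predicted loci left out. The genes named for Scg2 are thus not set apart from many others. Htr2a encodes a serotonin receptor, Sstr2 a somatostatin receptor and Ednrb an endothelin receptor.

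The rest of the peptide pathway was followed in 5 lists of 96 genes, of which 91 were measured. Between the later and earlier arrays 4 of them rose and 1 fell, in a comparison that called 1.2% of all genes as higher and 1.01% as lower. All 4 that rose were on the lists of precursors and of peptide-processing enzymes. On the 2 lists of vesicle genes, of 19 and 29 genes, none passed (limma, with 1 and 2 genes at an unadjusted p under 0.05, against 2857 of 19938 over all genes). With 2.22% of all genes called, lists of this size hold few calls or none at the background share.

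Among 23 measured precursor genes, Bdnf, Penk and Adcyap1 rose, none fell and 20 did not pass (list median 0.12, with 1.2% of all genes called as higher). Of the 23, 17 had a mean signal above the background mark of 4.46, and a change in the others could go undetected. At an unadjusted p under 0.05 (limma) there were 9 of the 23, against 2857 of 19938 over all genes. The later arrays all lay above the earlier ones for 5 of the 23, against 3.47% of all genes. The lists were chosen with earlier results of these data known, and Bdnf is also among the activity check genes. These counts thus describe the list and are not a test of it. Bdnf encodes a neurotrophin whose precursor is cut by convertases. It had signals of 6.23 and 6.03 at 0 min, 6.30 and 6.22 at 30 min, 7.16 and 7.38 at 180 min, and 7.28 and 7.34 at 300 min. The rise was 1.10 ± 0.09 SE (limma adjusted p = 2.14e-05). Penk, whose precursor is a classical substrate of Pcsk1 and Pcsk2, had signals of 5.58 and 5.64 at 0 min, 5.55 and 5.28 at 30 min, 6.23 and 6.65 at 180 min, and 6.69 and 6.40 at 300 min. It rose by 0.98 ± 0.11 SE (limma adjusted p = 0.000387). Adcyap1, which encodes the precursor of the peptide PACAP, went from 5.44 to 5.67 on the earlier arrays to 6.01 to 6.31 on the later ones, a rise of 0.61 ± 0.09 SE (limma adjusted p = 0.00209). For all 3 precursors the later arrays lay above the earlier ones and the call was kept without each array in turn. At 180 min against 0 min Bdnf and Penk passed, with 0.331% of all genes called, and at 300 min Bdnf, Penk and Cpm, with 0.286% called. The call of Penk at 180 min (0.83, limma adjusted p = 0.042) was kept without 180 min replicate 1 and lost without each of the 7 other arrays, and with median centring (0.0581). At 300 min (0.93, limma adjusted p = 0.0225) it was lost without either 0 min array or 300 min replicate 1.

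Of 14 measured processing enzymes, 1 rose and 13 did not pass (list median −0.03). The gene that rose was Cpm, which encodes a carboxypeptidase of the cell surface that removes C-terminal basic residues, as Cpe does inside the vesicle. Its signals ran from 5.71 to 5.85 on the earlier arrays and were 5.99 and 6.62 at 180 min and 6.53 and 6.81 at 300 min, a rise of 0.70 ± 0.12 SE (limma adjusted p = 0.00873). The lowest later array, 180 min replicate 1, lay just above the earlier ones, and without it the change was 0.85. At 300 min against 0 min the change was 0.92 (limma adjusted p = 0.042), a call lost without either array of 0, 30 or 300 min and with median centring (0.0624). Pam, the gene of the amidating enzyme that finishes many peptides, changed by 0.37 with a limma adjusted p of 0.0772 and did not pass.

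Of 6 measured other proprotein convertases, none rose and 1 fell (list median −0.01). Mbtps1 encodes the site-1 protease, a convertase of the Golgi that cuts sterol-regulated transcription factors. Its signals were 7.80, 7.55, 7.63 and 7.53 on the earlier arrays and 7.24, 7.17, 7.22 and 7.32 on the later ones. The change was −0.39 ± 0.09 SE (limma adjusted p = 0.0347), and the call was kept without 0 min replicate 2 and lost without each of the 7 other arrays, with limma adjusted p up to 0.173. Quantile normalization also ended it (0.0543). Furin, the convertase of the constitutive pathway, changed by −0.0008 and did not pass.

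The vesicle lists had medians near that of all genes. None of 19 genes of vesicle assembly and acidification passed, with changes between −0.25 and 0.10 and a median of −0.01. Of the 19, 17 had a mean signal above the background mark of 4.46. The smallest F test p were those of Eipr1 (limma adjusted p = 0.472) and Ccdc186 (0.621), both genes of vesicle maturation. Between the later and earlier arrays Eipr1 changed by −0.25 ± 0.08 SE (limma adjusted p = 0.163) and Ccdc186 by 0.08 ± 0.11 SE (limma adjusted p = 0.819). None of 29 genes of vesicle release and membrane passed either, with changes between −0.23 and 0.27 and a median of −0.01. The smallest F test p were those of Ptprn, which encodes a transmembrane protein of dense-core vesicles (limma adjusted p = 0.553), and Doc2b, a calcium sensor gene (0.637). Their values between the later and earlier arrays were 0.27 ± 0.10 SE (limma adjusted p = 0.207) and −0.23 ± 0.09 SE (limma adjusted p = 0.281).

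**Figure D4:**
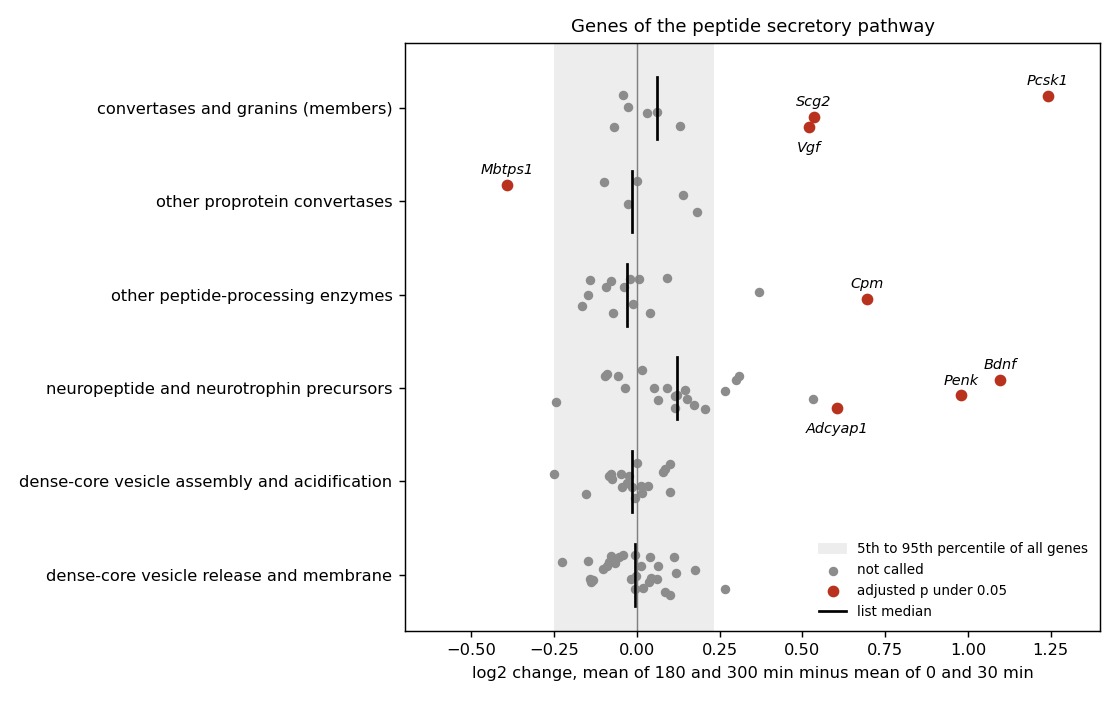
Log2 change between the later (180 and 300 min) and earlier (0 and 30 min) arrays on the x axis for each measured gene of 6 lists, with genes of adjusted p under 0.05 in red, list medians as bars and the 5th to 95th percentile of all genes (−0.25 to 0.23) in grey. The red points are Pcsk1, Scg2 and Vgf among the members, Cpm, Bdnf, Penk and Adcyap1 to the right and Mbtps1 to the left, and the vesicle lists hold none.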

How the data were processed

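The deposited values were log2 signals, 1 per transcript cluster and array. The base was taken from their range (1.22 to 14.96). Per the labels' protocols, biotin-labelled total RNA was hybridised to Affymetrix Mouse Gene ST 1.0 arrays. The sources used here do not give the background correction, probe summary, normalization, software or build. Background left in dim signals would shrink their changes. The values were used as deposited. Of 35399 rows, 21789 had 1 gene symbol in the platform annotation, 1621 several and 11989 none, and 21698 matched RefSeq of GRCm38.p6 by gene number with 0 symbols changed. Of several clusters of a gene (999 genes), that with the highest mean was used. A mean for each of 4 times was fitted to 8 arrays with limma 3.58.1 in R 4.3.3 (lmFit and eBayes, 4 residual and 10.1 prior degrees of freedom), with two-sided p-values adjusted by Benjamini-Hochberg over 19938 genes and a threshold of 0.05. The later against the earlier times were a contrast of that fit. SE is moderated, and SD is over arrays. Precision is limited by the small number of arrays. The fit and motif search were tested on simulated data.

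The genes and lists were chosen with earlier results of these data known. Named genes were all members, pathway genes called at a later time or between the later and earlier times (otherwise the 2 with the smallest F test p of a list), and the 5 genes nearest to each member that passed the F test. Pam and Furin were named after their values were seen. Alternatives were quantile normalization, median centring, a filter on dim genes, all rows tested, mean clusters, a variance trend, the compared times alone, a replicate block and each array left out. The planned comparison of Pcsk1 with Pcsk2 and the protein features were not run.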

Additional observations from a re-analysis of the deposited data

How the results depend on the processing

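The late rise of Pcsk1 kept its direction and call under every alternative run (1.13 to 1.35 over all of them). Those of Scg2 and Vgf kept their direction under all, and lost their calls with all rows of the table tested, including those that name no gene (limma adjusted p = 0.0704 and 0.162), and Vgf without 3 single arrays. Testing every row left 1 of 3 members called late, 0 of 1 at 180 and 300 min, 0 of 2 for 180 against 30 min and 0 of 2 in the F test, and 1 of 5 pathway genes late, 0 of 2 at 180 min, 0 of 3 at 300 min and 0 of 4 in the F test, and the cause was not tested. Members called at 180 against 0 min were 2 after quantile normalization, 2 with dim genes removed and 3 with a variance trend, in place of 1. For 180 against 30 min they were 1 in place of 2 with median centring, with the compared times alone and with the replicate block, and pathway genes called at 180 min were 1 in place of 2 under the same 3. Without each array in turn, members called were 0 to 1 at 180 min, 1 at 180 against 30 min and 1 to 2 in the F test, and pathway genes called were 1 to 2 at 180 min, 1 to 3 at 300 min and 2 to 4 in the F test. Calls over all genes late fell from 442 to 154 without 30 min replicate 1 and to 30 with every row tested, and were 614 with dim genes removed and 615 with a variance trend.

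Signs turned among changes that never passed: Scg2 at 30 min was 0.016 after quantile normalization and −0.036 to 0.029 without each array, Vgf at 30 min −0.064 to 0.25, Pcsk1 from 180 to 300 min −0.10 to 0.34, Vgf from 180 to 300 min −0.22 to 0.038 and Pcsk1n late −0.10 to 0.014. No pairing by replicate number was seen, as deviations of same-numbered arrays correlated at −0.09 to 0.09 over 6 pairs of times. Such correlations over all genes cannot show whether same-numbered cultures shared a dissection. With the replicate block, Scg2 at 180 against 30 min had a limma adjusted p of 0.0607 and Penk at 180 min 0.0545, and the late calls of Pcsk1, Scg2 and Vgf were kept. A fit without 1 array assumes that the lone array left varies like the other groups. Counting only bases before the start, 1.55% of windows held a full CRE and 17.8% a core.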
